A study of Mus musculus with 6 samples.

Results

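Apelin and adrenomedullin are secreted peptides that act on blood vessels, and 6 genes of their 2 ligand-receptor systems are described here. The ligand genes are Apln, which encodes apelin, and Adm, which encodes adrenomedullin. The receptor genes are Aplnr, which encodes the apelin receptor, Calcrl, which encodes the calcitonin receptor-like receptor, and the receptor activity-modifying protein genes Ramp2 and Ramp3. The 6 genes were taken by name, and all 6 were among the 20822 genes of the count table.

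Apelin binds a G protein-coupled receptor that inhibits adenylyl cyclase. Adrenomedullin binds the product of Calcrl only when it is paired with a receptor activity-modifying protein, and the pair raises cyclic AMP through the stimulatory G protein. Both ligand genes are known to be raised by low oxygen, and both are used as markers of tip cells, the leading endothelial cells (ECs) of a growing vessel. In the retina, tip cells lead the sprouts at the vascular front, and mice without adrenomedullin or Calcrl die before birth with vascular defects.

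Single cells were measured by Drop-seq, a droplet method that counts unique molecular identifiers (UMIs) at the 3′ end of transcripts, in retinas of mice at postnatal day 14 of oxygen-induced retinopathy (OIR). In OIR the pups of all replicates were kept in raised oxygen, which removes vessels of the central retina, and were then returned to room air, which makes the retina hypoxic. There were 3 replicates of wild-type mice labelled eNOS+/+ (C57BL/6J) and 3 of mice labelled eNOS-/-, which carry a Nos3 knockout allele in every tissue and were backcrossed to the same background. Each replicate pooled 3 to 5 retinas, and the suspensions were enriched for ECs with beads coated with CD31 antibodies, so the shares of other cell types are those left after the enrichment. By the deposited annotation the 8944 cells fell into 10 cell types. Of them 5925 were labelled Tip ECs (1428), ECs (3335) or Proliferative ECs (1162), and the label ECs is read here as Structural ECs. The 5925 were 2121 cells of eNOS+/+ and 3804 of eNOS-/-, and the authors' paper gives fewer ECs in both genotypes. The EC groups may therefore hold cells that the paper did not count as ECs.

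The replicates held 617246 to 3350799 UMIs, and 3 cell barcodes were shared between libraries. Nos3, the targeted gene, was at 19.4, 36.6 and 23.6 counts per 1000000 UMIs (CPM) in all ECs of the eNOS+/+ replicates and at 21.2, 16.1 and 32.8 CPM in those of the eNOS-/- replicates, so its UMIs do not separate the labels. The 11 EC markers averaged a summed 9837, 8519 and 7623 CPM in Tip, Structural and Proliferative ECs, against 1003 to 2363 CPM in the other types. Most of the other types also had UMIs of all 11. The summed level of the tip markers averaged 3199 CPM in Tip ECs, 1481 CPM in mural cells, the second highest type, and 841 CPM in Structural ECs. Replicate 3 of eNOS-/- stood apart, because its Structural ECs carried the 8 mural cell markers at a summed 3868 CPM against 32.3 to 173 CPM in the other 5 replicates, and their tip markers at 1170 CPM against 640 to 921 CPM. Several results are therefore given both with and without it. Structural ECs also carried red blood cell markers, at a summed 20.0 to 12532 CPM over the replicates.

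Both ligand genes were high in Tip ECs, so the sequence before their starts is shown, with matches to ACGTG and GCGTG, the core of the hypoxia response element, in capitals on either strand (a match on the other strand reads CACGT or CACGC). The 250 bases before the start are from RefSeq on GRCm38.p6. They lie at chrX:48034854-48035103 on the minus strand for Apln and at chr7:110627407-110627656 on the plus strand for Adm.
Apln: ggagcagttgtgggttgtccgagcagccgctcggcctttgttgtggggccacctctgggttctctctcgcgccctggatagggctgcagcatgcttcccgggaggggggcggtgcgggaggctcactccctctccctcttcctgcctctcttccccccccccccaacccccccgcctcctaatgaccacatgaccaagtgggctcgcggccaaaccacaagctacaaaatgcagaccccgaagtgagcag
Adm: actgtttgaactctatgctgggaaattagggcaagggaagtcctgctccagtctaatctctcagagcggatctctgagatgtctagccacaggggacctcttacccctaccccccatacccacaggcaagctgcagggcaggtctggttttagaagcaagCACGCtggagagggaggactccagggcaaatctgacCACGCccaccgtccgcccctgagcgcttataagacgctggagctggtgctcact
The Adm window held 2 matches, whose first bases lie 90 and 54 bases before the start, and the Apln window held 0. The windows of Ramp3 and Calcrl held 2 and 0. Of 32851 RefSeq promoter windows of the same length, 38.6% held at least 1 match and 16.7% held 2 or more, so a match is common in such windows.

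In the GENCODE annotation of GRCm38, Apln lies on chromosome X from 48025146 to 48034853 and Adm on chromosome 7 from 110627661 to 110629820. Aplnr lies on chromosome 2 from 85136225 to 85139923 and Calcrl on the same chromosome from 84330626 to 84425411. Ramp2 and Ramp3 are both on chromosome 11, from 101246028 to 101259546 and from 6658521 to 6677475. Adm overlaps the antisense gene Gm28863 and Ramp3 the pseudogene Gm11978, and the sources used here do not say whether the counting used strand, so UMIs of these pairs cannot be told apart. Ramp2 overlaps Vps25 on the same strand, and Vps25 was counted separately, at 12.1 to 16.6 CPM in the EC subtypes.

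Levels are UMIs of a gene per 1000000 UMIs of the summed cells of a type and replicate. The EC subtypes were defined by the authors on the same UMIs, and Apln and Adm are among the genes they name as tip markers, so the levels in the subtypes are a description and carry no test. Between replicates a lower level can come from fewer cells with the transcript or from less of it per cell, and sums of cells cannot tell these apart.

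Apln was a gene of Tip ECs in all 6 replicates. Its level in Tip ECs was 967.8, 966.9 and 999.4 CPM in eNOS+/+ replicates 1 to 3 and 1037.0, 736.5 and 974.8 CPM in eNOS-/- replicates 1 to 3. In Structural ECs it was 107.3, 60.7 and 126.0 CPM in eNOS+/+ and 172.0, 162.8 and 254.1 CPM in eNOS-/-. In Proliferative ECs, which carry cell cycle genes, it was 260.9, 206.9 and 185.4 CPM in eNOS+/+ and 230.4, 197.7 and 268.6 CPM in eNOS-/-. The lowest Tip EC value was above the highest value of either other subtype, and the Structural and Proliferative values overlapped. Within a replicate, Tip ECs were above Structural ECs by 2.76 ± 0.71 (SD, n = 6) on the log2(CPM + 5) scale, and Proliferative ECs were above Structural ECs by 0.71 ± 0.62 (SD, n = 6), with all 6 replicates in the same direction in both cases. The gap between Tip and Structural ECs ran from 1.92 to 3.89, and its 3 smallest values were those of the eNOS-/- replicates. The share of all genes whose gap separates the genotypes in this way was not computed, so no genotype difference is read from it.

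Adm followed the same order with a larger spread. In Tip ECs it was at 253.5, 309.8 and 345.1 CPM in the eNOS+/+ replicates and at 442.7, 466.7 and 329.6 CPM in the eNOS-/- replicates. In Structural ECs it was at 22.5, 32.4 and 42.8 CPM in eNOS+/+ and at 35.8, 32.2 and 115.9 CPM in eNOS-/-, and in Proliferative ECs at 53.1, 54.0 and 63.1 CPM and at 35.9, 52.4 and 127.9 CPM. All Tip EC values were above all values of the other subtypes, and the highest Structural and Proliferative values were both those of eNOS-/- replicate 3. Tip ECs were above Structural ECs by 2.96 ± 0.78 (SD, n = 6) on the log2(CPM + 5) scale, in all 6 replicates, and by 3.26 on average without eNOS-/- replicate 3. Proliferative ECs were above Structural ECs by 0.50 ± 0.39 (SD, n = 6), with 1 replicate at 0.0039, the least of the 6.

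Aplnr, the receptor of apelin, did not follow its ligand. In Tip ECs it was at 313.4, 304.5 and 378.7 CPM in eNOS+/+ and at 331.0, 269.7 and 252.5 CPM in eNOS-/-. In Structural ECs it was at 274.5, 259.2 and 351.4 CPM in eNOS+/+ and at 295.9, 305.8 and 127.1 CPM in eNOS-/-, and in Proliferative ECs at 381.7, 274.4 and 382.5 CPM and at 317.1, 316.0 and 498.8 CPM. The 3 subtypes overlapped, and the lowest and the highest of these 18 values both came from eNOS-/- replicate 3, whose Structural ECs carried the mural markers. The difference of Tip minus Structural ECs was 0.24 ± 0.38 (SD, n = 6) on the log2(CPM + 5) scale, which is within its spread, and fell to 0.10 without that replicate. Proliferative ECs were above Structural ECs in all 6 replicates, by 0.46 ± 0.74 (SD, n = 6), but by 0.16 on average without that replicate.

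Calcrl, the receptor that adrenomedullin shares with calcitonin gene-related peptide, leaned the other way from its ligand. It was at 46.1, 10.7 and 52.6 CPM in Tip ECs of eNOS+/+ and at 105.7, 67.1 and 49.1 CPM in those of eNOS-/-. In Structural ECs it was at 97.3, 97.2 and 99.5 CPM and at 122.2, 92.1 and 44.8 CPM, and in Proliferative ECs at 67.6, 99.0 and 82.8 CPM and at 101.7, 64.2 and 38.4 CPM. In eNOS+/+ the 3 Tip EC values were all below the 3 Structural EC values, whereas in eNOS-/- the subtypes overlapped. The share of all genes with this pattern was not computed, so no genotype difference is read from it. Tip ECs were below Structural ECs in 5 of 6 replicates, with a mean difference of -0.85 ± 1.00 (SD, n = 6) on the log2(CPM + 5) scale, which is smaller than its spread. The mean was -0.47 without eNOS+/+ replicate 2, whose Tip ECs were lowest, and -1.04 without eNOS-/- replicate 3. Proliferative ECs were below Structural ECs in 5 of 6 replicates, by -0.28 ± 0.19 (SD, n = 6). The Tip EC values rest on 145 UMIs in all, and those of eNOS+/+ replicates 1 to 3 on 10, 2 and 25.

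Ramp2, which carries Calcrl to the cell surface and gives it its affinity for adrenomedullin, was at a near level in the 3 subtypes. Its level was 765.0, 571.6 and 879.5 CPM in Tip ECs of eNOS+/+ and 705.9, 940.5 and 862.6 CPM in those of eNOS-/-. Structural ECs had 753.6, 753.2 and 1129.9 CPM and 841.5, 1060.6 and 818.4 CPM, and Proliferative ECs had 961.5, 724.2 and 993.8 CPM and 831.7, 1081.5 and 946.4 CPM. The ranges of the subtypes overlapped. The log2 difference was -0.18 ± 0.19 (SD, n = 6) for Tip minus Structural ECs and 0.05 ± 0.19 (SD, n = 6) for Proliferative minus Structural ECs, both on the log2(CPM + 5) scale.

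Ramp3, the other partner of Calcrl in adrenomedullin receptors, had 116 UMIs in all cells, of which 81 were in ECs. In Structural ECs it was at 22.5, 32.4 and 11.3 CPM in eNOS+/+ and at 15.7, 10.7 and 3.74 CPM in eNOS-/-, each from 1 to 18 UMIs. In Tip ECs it had 0 to 9 UMIs per replicate and in Proliferative ECs 0 to 4, so no order of the subtypes can be read at this depth. The log2 differences from Structural ECs were -1.19 ± 1.37 (SD, n = 6) for Tip and -0.71 ± 1.71 (SD, n = 6) for Proliferative ECs, both smaller than their spread. Without eNOS-/- replicate 3 they were -1.52 and -1.39. For Proliferative ECs that replicate was the only 1 above 0, at 2.68 from 4 UMIs.

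**Figure D1:**
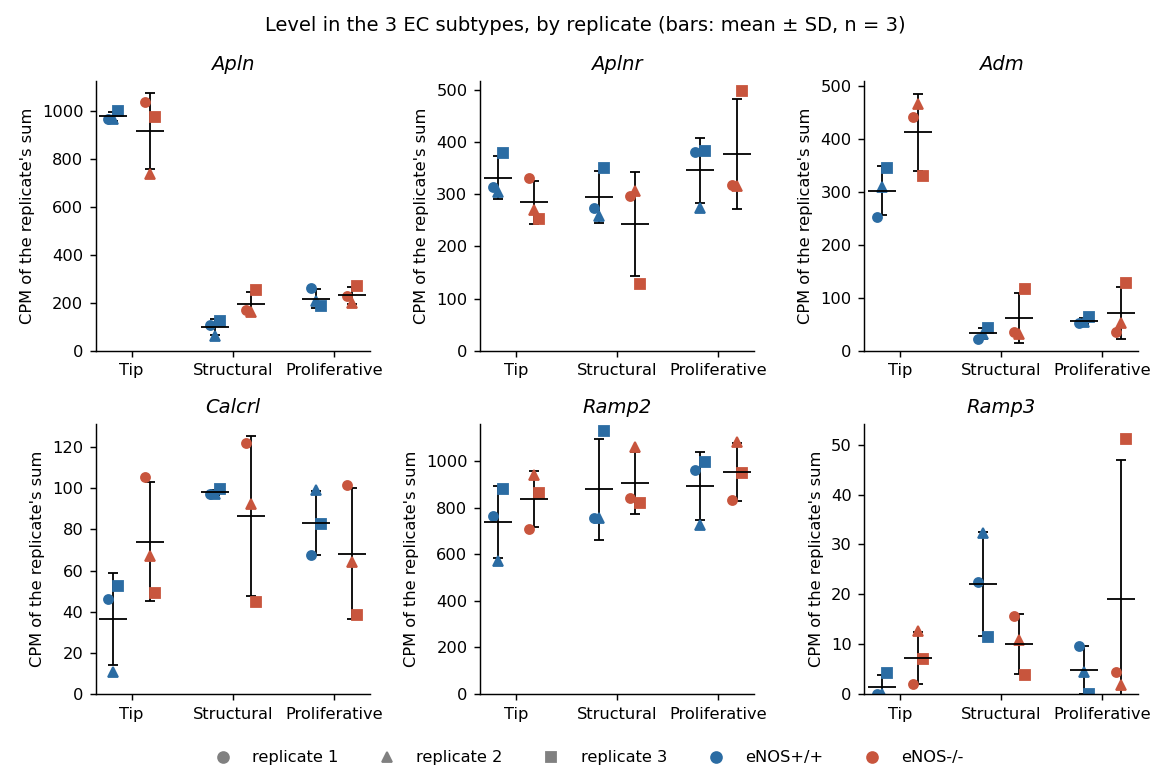
Level of each gene (CPM, linear axis from 0) in Tip, Structural and Proliferative ECs, with 1 point per replicate (marker shape: replicate number; blue: eNOS+/+, red: eNOS-/-), and bars for the mean ± SD of 3 replicates. Apln and Adm are highest in Tip ECs, with Apln at 736.5 CPM or more there, while Aplnr and Ramp2 overlap between the subtypes and Ramp3 stays under 52 CPM.

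Over the 10 cell types, the 6 replicates were pooled, because several types had few cells. Mural cells of eNOS+/+ replicate 1 were 3 cells, eNOS-/- replicate 3 had no neuroglia, and 2 replicates had no cones. Each pooled level has a 95% Poisson interval, which covers counting error only. Apln was at 916 CPM in Tip ECs (interval 877 to 957), 217 CPM in Proliferative ECs (197 to 238) and 152 CPM in Structural ECs (140 to 165). Neuroglia followed at 117 CPM (67.1 to 191, 16 UMIs), an interval that overlaps that of Structural ECs, then mural cells at 85.9 CPM and rods at 64.0 CPM. The 7 types outside the ECs overlapped their neighbours in the order, and cones had 0 UMIs.

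Adm was at 393 CPM in Tip ECs (367 to 420), and the second place was held by neuroglia, the retinal glia, at 139 CPM (83.9 to 218, 19 UMIs). The neuroglia also carried the 11 EC markers, at a summed 1767 to 2298 CPM against 6864 to 10302 CPM in the EC subtypes, and the part of EC RNA in their levels of Apln, Adm and Calcrl was not tested. By replicate neuroglia had 83.6, 0 and 119.5 CPM of Adm in eNOS+/+ and 243.5 and 133.4 CPM in eNOS-/- replicates 1 and 2. Mural cells, the cells that wrap the vessels, were at 63.7 CPM (38.9 to 98.3), immune cells at 53.7 CPM (24.6 to 102), Proliferative ECs at 51.5 CPM (42.0 to 62.3) and Structural ECs at 40.0 CPM (34.0 to 46.7). These 4 types overlapped each other in turn. Rods were lower, at 13.7 CPM (6.27 to 26). Neurons, cones and Optc+ cells had 0 UMIs of Adm, which for neurons leaves an upper bound of 6.56 CPM.

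Aplnr separated ECs from the other types more sharply than the ligands did. Its pooled level was 334 CPM in Proliferative ECs, 313 CPM in Tip ECs and 294 CPM in Structural ECs, with overlapping intervals between neighbours, against 16.9 to 35.0 CPM in the 7 other types. Of its 2596 UMIs, 2543 were in ECs. Mural cells of eNOS+/+ replicate 1 stood at 618.2 CPM, from 7 UMIs in 3 cells, while 4 of the other 5 replicates had 0 UMIs there.

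Calcrl was found outside ECs in neuroglia, at 117 CPM (67.1 to 191) from 16 UMIs, which overlapped Structural ECs at 99.9 CPM (90.3 to 110). By replicate neuroglia had 250.7, 0 and 0 CPM in eNOS+/+ and 173.9 and 83.4 CPM in eNOS-/- replicates 1 and 2, so the level rests on 3 replicates. Proliferative ECs were at 82.1 CPM (70.1 to 95.6) and Tip ECs at 64.8 CPM (54.6 to 76.2), and the interval of Tip ECs did not meet that of Structural ECs. The other 6 types were at 0 to 28.6 CPM.

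Ramp2 was at 945 CPM in Structural ECs, 931 CPM in Proliferative ECs and 822 CPM in Tip ECs, against 18.5 to 102 CPM in the 7 other types. Ramp3 was at 44.2 CPM (29.6 to 63.5) in rods, the photoreceptors of dim light, from 29 UMIs, and at 37.0 CPM (4.48 to 134) in cones from 2 UMIs, which overlap. The interval of rods did not meet that of Structural ECs at 14.3 CPM (10.9 to 18.6) from 57 UMIs. By replicate rods had 64.1, 0 and 0 CPM of Ramp3 in eNOS+/+ and 31.0, 40.8 and 0 CPM in eNOS-/-. The 3 replicates at 0 were those with the fewest rods, 7, 56 and 26 cells.

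**Figure D2:**
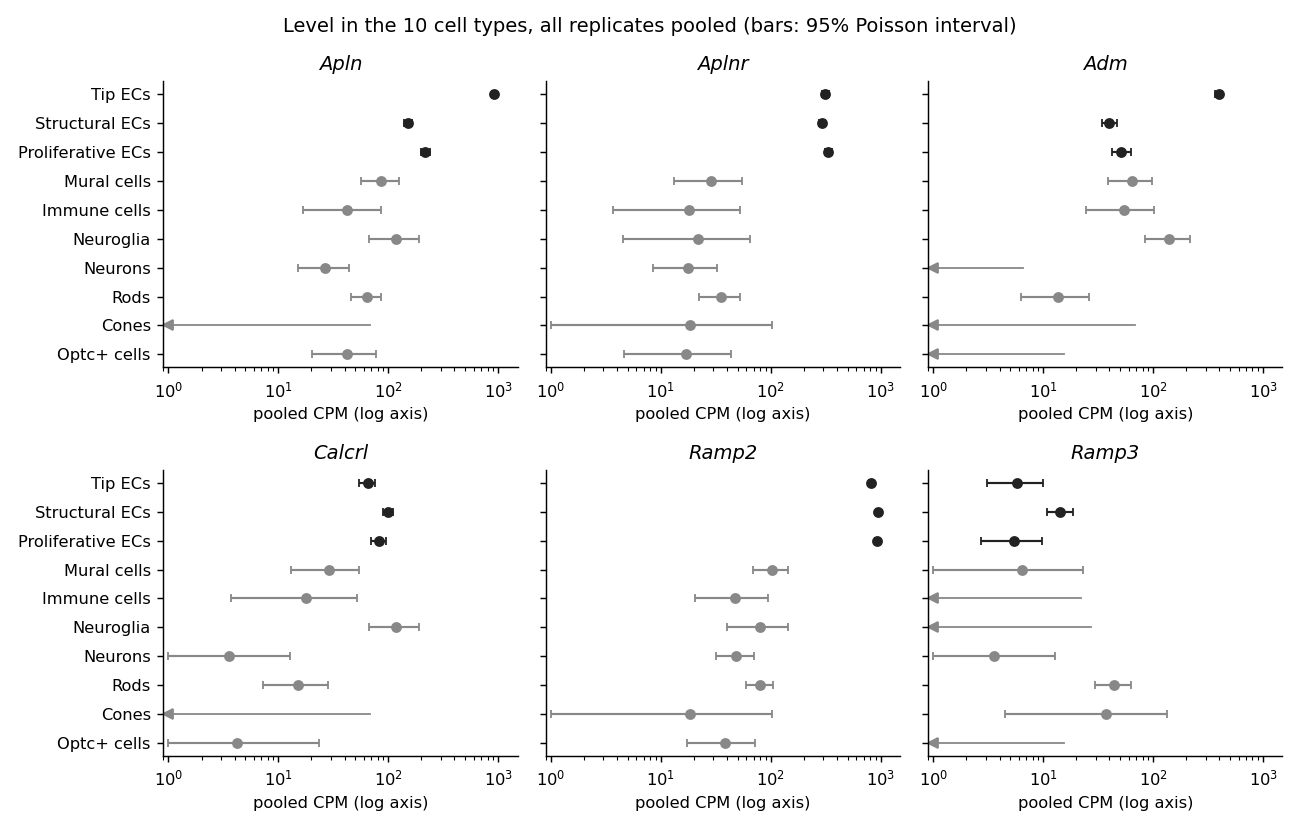
Pooled level of each gene in the 10 cell types (CPM, log axis; black: ECs, grey: other types) with its 95% Poisson interval, drawn from 1 CPM upward. A triangle at the left edge marks a type with 0 UMIs. Aplnr and Ramp2 separate the 3 EC subtypes from all other types, Adm and Calcrl are also found in neuroglia at 139 and 117 CPM, and Ramp3 is at 44.2 CPM in rods, where its interval overlaps that of cones.

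The origin of all UMIs of a gene set the ligands apart from the receptors among ECs. On average over the 6 replicates, Tip ECs held 22.3% of the UMIs of all genes, Structural ECs 38.6% and Proliferative ECs 19.5%. Of the UMIs of Apln, 65.3% ± 7.6 (SD, n = 6) came from Tip ECs, and of those of Adm 70.2% ± 9.8. Tip ECs gave 28.4% of the Aplnr UMIs, 24.6% of those of Ramp2 and 18.5% of those of Calcrl, next to 22.3% of all UMIs. Structural ECs gave 53.4% of Calcrl, 48.3% of Ramp2 and 41.6% of Aplnr. All ECs together held 94.9% to 98.5% of the UMIs of these 5 genes, and 80.9% ± 25 (SD, n = 6) of those of Ramp3, next to 80.5% of the UMIs of all genes.

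**Figure D3:**
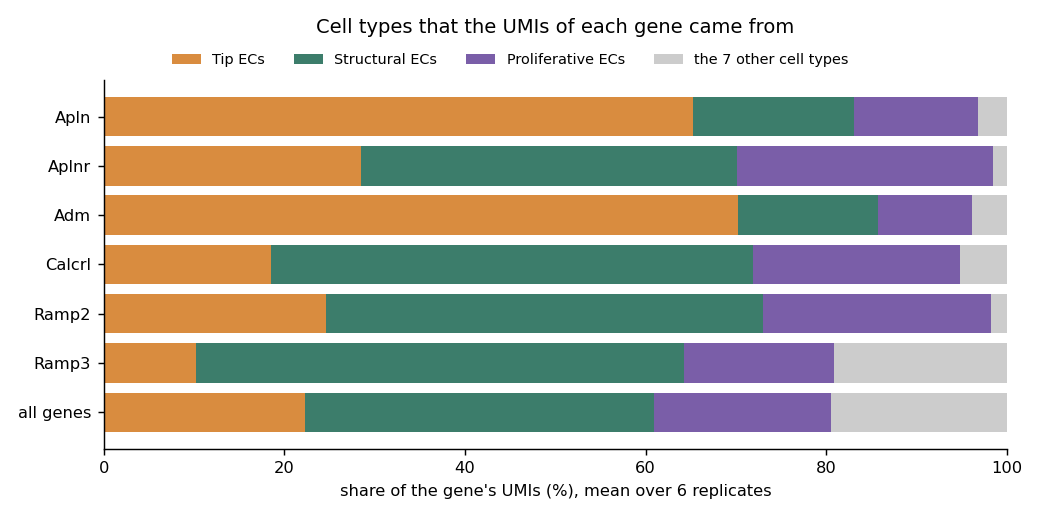
Share of the UMIs of each gene, and of all genes, that came from Tip, Structural and Proliferative ECs and from the 7 other cell types (percent, linear axis, mean over 6 replicates). Tip ECs take 65.3% of Apln and 70.2% of Adm but 28.4% of Aplnr, 24.6% of Ramp2 and 18.5% of Calcrl.

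The same was seen in the share of cells with a UMI once each cell was thinned to 500 UMIs, which left out 2380 of the 5925 ECs, 686 in eNOS+/+ and 1694 in eNOS-/-. Apln was then found in 31.4% of Tip ECs (Wilson 95% interval 28.8 to 34.3), 8.55% of Proliferative and 5.95% of Structural ECs. The Wilson intervals take the cells of all replicates together, so they cover counting error only and not the spread between replicates. Outside ECs it was found in 5.10% of neuroglia (2.20 to 11.4, 5 of 98 cells) and 3.40% of mural cells (1.46 to 7.71). In rods, a type not known for apelin, it was found in 3.09% (1.81 to 5.21). Rods also carried the 11 EC markers, at a summed 720 to 4286 CPM over the replicates. The part of EC RNA or other background in the shares of rods, neuroglia and mural cells was not tested. Adm was found in 15.7% of Tip ECs (13.6 to 18) but in 2.60% of Proliferative and 1.40% of Structural ECs, where rods had 0.238%. Neuroglia had Adm in 5.10% (2.20 to 11.4), an interval that overlaps that of Proliferative ECs (1.71 to 3.95). At full depth Apln was found in 48.5% of Tip ECs, whose median was 1007 UMIs per cell.

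Receptor shares differed less between the subtypes. Aplnr was found in 13.9% of Tip, 12.3% of Structural and 14.5% of Proliferative ECs against 0.475% of rods. Ramp2 was found in 32.4%, 37.0% and 34.6% of the same subtypes against 3.09% of rods. Calcrl was found in 2.84% of Tip ECs (2.01 to 4.00), 4.61% of Structural ECs (3.70 to 5.74) and 4.21% of Proliferative ECs against 0.475% of rods. Neuroglia had Calcrl in 5.10% (2.20 to 11.4, 5 of 98 cells), an interval that overlaps those of the EC subtypes. Ramp3 was found in 0.124% to 1.09% of the EC subtypes against 1.66% of rods and 0.255% of neurons. Mural cells, immune cells, neuroglia and Optc+ cells had 0%, where 0 cells allow a share of up to 2.04% to 3.06%. Over replicates the Aplnr share of Tip ECs averaged 13.1% ± 4.7 (SD, n = 6), a spread that the pooled intervals leave out. Of all 8944 cells, 2874 lay in 830 families of barcodes that differ only in their last base. Counting each family as 1 cell moved none of the 18 shares of the 6 genes in the 3 subtypes by more than the SD over replicates.

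Ligand and receptor were then looked for in the same ECs, at 500 UMIs per cell. Aplnr was found in 58 of 510 ECs with a UMI of Apln (11.4%) and in 13.6% of the 3035 ECs without one. By replicate Aplnr was found in 10.3%, 12% and 14.7% of the Apln-positive ECs of eNOS+/+ and in 11.4%, 8.39% and 13.3% of those of eNOS-/-. The Apln-negative ECs had 12.4%, 13.5% and 17.6% in eNOS+/+ and 12.3%, 13.4% and 7.79% in eNOS-/-. The share was lower in Apln-positive ECs in 5 of 6 replicates, with a mean difference of -1.16 ± 3.58 percentage points (SD, n = 6), which is within its spread. The direction depended on the setting, with 0.031 points at 300 UMIs, 1.48 points at 1000 UMIs and 0.22 points with barcode families as 1 cell, so none is read from it. Among Tip ECs alone the difference was -4.65 ± 4.32 points (SD, n = 6), and -1.48 ± 3.85 points at 300 UMIs.

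Calcrl was found in 5 of 215 ECs with a UMI of Adm (2.33%) and in 4.08% of the 3330 ECs without one. The mean difference over replicates was -1.74 ± 1.83 percentage points (SD, n = 6), and 3 replicates had 0 cells with both. These were eNOS+/+ replicates 1 and 3 and eNOS-/- replicate 3, with 13, 44 and 15 Adm-positive ECs. Their Adm-negative ECs had Calcrl in 3.24%, 4.10% and 1.78%, shares at which so few cells can give 0, so no direction is read from it. The ligands were found together more often. Adm was found in 15.1% of the 510 Apln-positive ECs and in 4.55% of the others, a mean difference of 11.3 ± 5.3 percentage points (SD, n = 6) with the same direction in 6 of 6 replicates. Among Tip ECs alone Adm was found in 20.1% of 343 Apln-positive cells and in 13.6% of the others, a mean difference of 8.21 ± 7.36 points (SD, n = 6) with 5 of 6 replicates in that direction. At 300 UMIs these differences were 6.43 ± 6.44 points in all ECs and 2.82 ± 9.34 points in Tip ECs (SD, n = 6), within their spread. Deep and shallow cells were brought to 1 depth for these shares, but UMIs in a cell that come from free RNA were not removed.

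**Figure D4:**
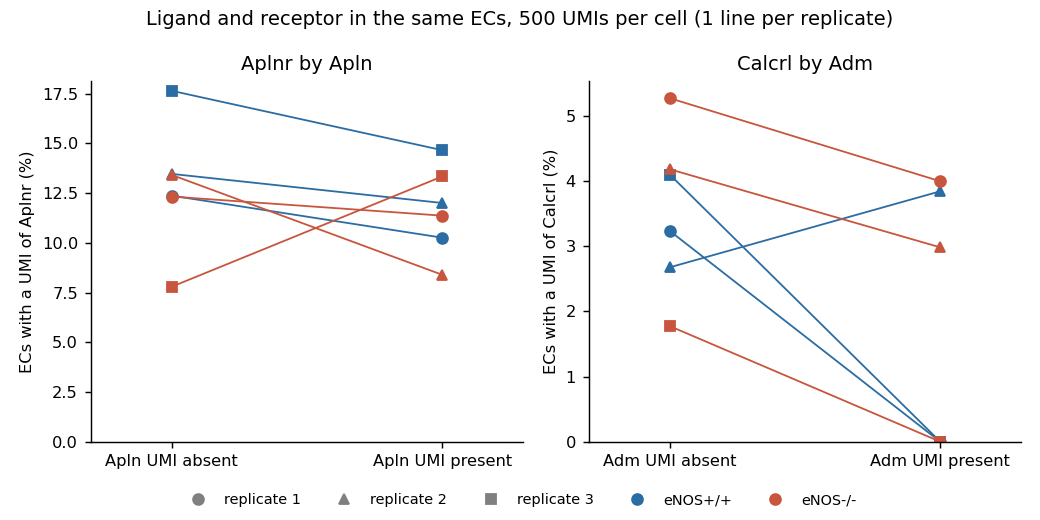
Percent of ECs with a UMI of the receptor (left: Aplnr, right: Calcrl) among ECs without and with a UMI of the ligand (Apln, Adm), at 500 UMIs per cell, 1 line per replicate (blue: eNOS+/+, red: eNOS-/-). In each panel 5 of 6 lines fall, and the mean differences, -1.16 and -1.74 percentage points, are within the SD over replicates. The Calcrl lines that end at 0 rest on 13, 44 and 15 Adm-positive ECs.

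Both partners of Calcrl are set side by side by their UMIs, since each UMI counts 1 transcript end whatever the transcript's length. In all ECs Ramp2 gave 98.4%, 98.1% and 99.3% of the Ramp2 plus Ramp3 UMIs in eNOS+/+ and 98.8%, 99.1% and 98.6% in eNOS-/-. The genotypes overlapped, with means of 98.6% ± 0.65 and 98.8% ± 0.27 (SD, n = 3), and did not differ in a two-sided exact permutation test (p = 0.5, where 0.1 is the smallest p possible with 3 against 3). In rods the share was 64.2% of 81 UMIs (exact 95% interval 52.8 to 74.6), against 98.9% in all ECs (98.7 to 99.1). The part of EC RNA in the UMIs of rods was not tested. Rods held 2 UMIs of Ramp2 and 13 of Ramp3 in eNOS+/+ replicate 1, 6 and 0 in eNOS+/+ replicate 3, 8 and 4 in eNOS-/- replicate 1, and 36 and 12 in eNOS-/- replicate 2, so Ramp3 was above Ramp2 in the first of these only and was not found in the second.

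Between genotypes, none of the genes passed the test in any EC population. The sums per replicate went through the quasi-likelihood test of edgeR, and p-values were adjusted over all tested genes by the Benjamini-Hochberg method, with a limit of 0.05. In Tip, Structural and Proliferative ECs 5 of the genes were tested, since Ramp3 did not pass the filter on low counts, and in all ECs 6. In mural cells 0 of the genes passed the filter. The share of all tested genes past the limit was 0.0181% in Tip, 0.0264% in Structural and 0.0217% in Proliferative ECs, 0.0211% in all ECs and 0% in mural cells. DESeq2 also called 0 of the 6 genes in each population. At an unadjusted p under 0.05 there was 1 gene in Tip ECs (Calcrl) and 1 in Structural ECs (Apln), where all tested genes gave 273 of 5510 and 418 of 7577, and there were 0 in Proliferative ECs and in all ECs.

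The largest of these differences were those of Calcrl in Tip ECs and Apln in Structural ECs. Calcrl in Tip ECs was 0.96 higher in eNOS-/- on the log2 scale (standard error 0.42, unadjusted p = 0.030, adjusted p = 0.904 from edgeR), and its eNOS+/+ and eNOS-/- values overlapped. Leaving out single replicates gave 0.62 to 1.43, the lowest value when eNOS+/+ replicate 2 was omitted and the highest when eNOS+/+ replicate 3 was. Apln in Structural ECs was 0.89 higher in eNOS-/- (standard error 0.29, unadjusted p = 0.0074, adjusted p = 0.733 from edgeR). Its 3 eNOS-/- values, 162.8 to 254.1 CPM, were all above the 3 eNOS+/+ values, 60.7 to 126.0 CPM, which was true of 5.74% of the tested genes in Structural ECs. Without eNOS-/- replicate 3, whose Structural ECs carried mural and tip markers at the highest level, the difference of Apln was 0.66 (adjusted p = 0.462 from edgeR). The 6 B cell markers summed in Structural ECs to 47.9 to 199.6 CPM in eNOS+/+ and 265.6 to 312 CPM in eNOS-/-, which do not overlap either. The part of these markers in the result was not tested.

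Adm was 0.46 higher in eNOS-/- on the log2 scale in Tip ECs (standard error 0.25, adjusted p = 0.985 from edgeR) and 0.39 higher in all ECs (standard error 0.23, adjusted p = 0.892 from edgeR). By replicate, all ECs had 90.9, 118.8 and 140.5 CPM of Adm in eNOS+/+ and 123.9, 165.3 and 180.2 CPM in eNOS-/-, and the groups overlapped. In Structural ECs the difference of Adm was 0.61 with all replicates and -0.040 without eNOS-/- replicate 3, so it rested on that library. Aplnr was lower in eNOS-/- by -0.22, -0.27 and -0.20 in Tip, Structural and all ECs, with standard errors of 0.25, 0.28 and 0.20. Ramp2 differed by 0.02 to 0.17 in the 4 EC populations. In Proliferative ECs the 5 genes differed by -0.10 to 0.10. That none of them passed the limit does not show that the genotypes were alike.

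The genotype difference was also compared between the subtypes, in 1 fit over the 18 sums, with the replicate as a term because the 3 sums of a replicate share their retinas. Of 7019 genes 0 passed the limit (0%), and 241 had an unadjusted p under 0.05. Among the 5 genes tested, the interaction had an unadjusted p of 0.00085 for Apln and 0.026 for Calcrl, both with an adjusted p of 1.00 from edgeR when rounded. For Apln the difference of eNOS-/- over eNOS+/+ in Tip ECs minus that in Structural ECs was -0.92 on the log2 scale, and the adjusted p ran from 0.589 to 1.00 over the other settings.

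**Figure D5:**
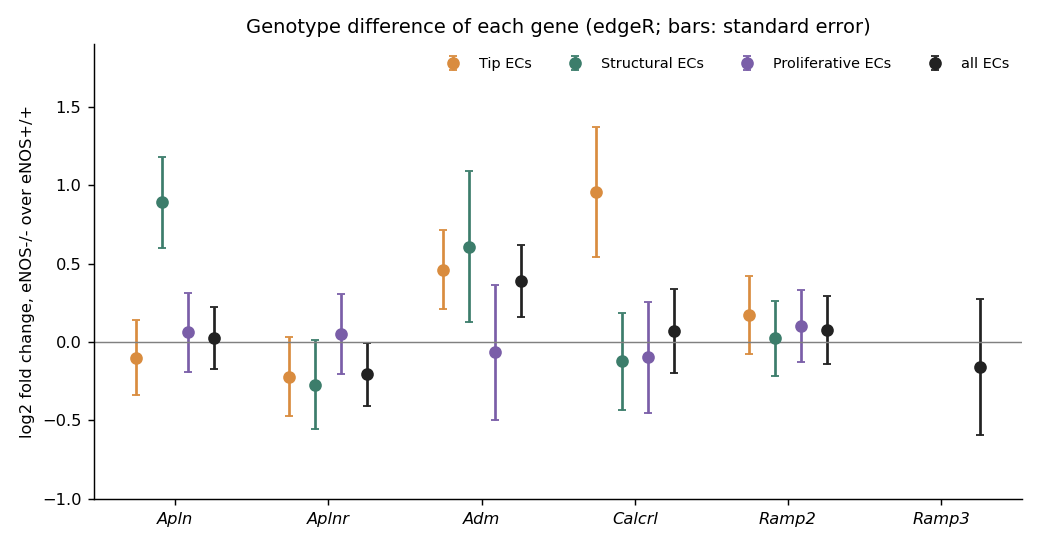
Log2 fold change of each gene, eNOS-/- over eNOS+/+, in Tip, Structural, Proliferative and all ECs (points: edgeR estimate from 3 against 3 replicates, bars: standard error). Ramp3 was tested in all ECs only, and none of the points passed an adjusted p of 0.05, the largest being Calcrl in Tip ECs at 0.96 and Apln in Structural ECs at 0.89.

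Other genes of the pathway were listed by role, 47 in all, and 42 were in the count table. Among further ligands, Apela, the second ligand of the apelin receptor, had 16 UMIs in all cells, and Calca, which encodes calcitonin and calcitonin gene-related peptide, had 3. Ramp1, whose product turns Calcrl into the receptor of calcitonin gene-related peptide, had 24 UMIs, 8 of them in immune cells. Ackr3, a scavenger receptor that takes up adrenomedullin, averaged 52.3 CPM in Tip ECs, 13 CPM in Structural and 6.46 CPM in Proliferative ECs. Mural cells averaged 91.1 CPM (SD 116) and Optc+ cells 102 CPM (SD 81.8), each from 24 UMIs.

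Of the enzymes, Pam, which amidates the end of adrenomedullin, averaged 407, 432 and 379 CPM in Tip, Structural and Proliferative ECs. It averaged 366, 420 and 440 CPM in mural cells, neuroglia and Optc+ cells, and 331, 174 and 168 CPM in neurons, immune cells and cones. Rods averaged 459 CPM from 123 UMIs, but with an SD of 510 CPM over the replicates, so their level is not ranked. Ece1, an endothelin-converting enzyme, averaged 808 CPM in Tip ECs, 667 CPM in Structural and 669 CPM in Proliferative ECs. Mme, which encodes neprilysin, an enzyme that cleaves apelin, had 31 UMIs in all cells. Of the signalling genes, Gnas, the stimulatory G protein downstream of Calcrl, averaged 421 to 453 CPM in the EC subtypes, and Gnai2, an inhibitory G protein that the apelin receptor can use, 1045 to 1383 CPM. Adcy4, an adenylyl cyclase, averaged 82.5 CPM in Tip ECs and 136 CPM in Structural ECs. Epas1, which encodes a hypoxia-inducible factor, averaged 272 CPM in Tip ECs against 468 CPM in Structural ECs and 589 CPM in mural cells. Hif1a, which encodes another, averaged 113 CPM in Tip ECs against 108 CPM in Structural ECs.

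Between genotypes 0 of the listed genes passed the limit in either direction, of 26 tested in Tip, 27 in Structural and 21 in Proliferative ECs, 30 in all ECs and 12 in mural cells. Their median log2 fold change was -0.02, 0.03, -0.13, -0.05 and -0.24 in the same order, where that of all tested genes was 0.00 to 0.02. At an unadjusted p under 0.05 there were 1, 2, 2, 2 and 3, where all tested genes gave 273 of 5510, 418 of 7577, 294 of 4607, 548 of 9483 and 51 of 1059. Rgs5, a regulator of G protein signalling that is also a mural marker, had a log2 fold change of 4.48 in Structural ECs (adjusted p = 0.695 from edgeR), the subtype in which eNOS-/- replicate 3 carried the mural markers. Klf2, a flow-responsive transcription factor and target of apelin signalling, was at -1.12 in Proliferative ECs (adjusted p = 0.512 from edgeR), and at -1.76 without eNOS-/- replicate 3 (adjusted p = 3.8e-06 from edgeR). Gnas was at -0.71 in the same cells (adjusted p = 0.627 from edgeR), and at -0.91 without that replicate (adjusted p = 0.038 from edgeR). Without it 73 of 5237 tested genes passed in Proliferative ECs, 68 of them lower, against 1 of 4607 with it. In all ECs Klf2 was at 324, 684 and 684 CPM in eNOS+/+ and at 219, 172 and 923 CPM in eNOS-/-. The replicate left out was thus the one with the highest Klf2 there.

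The genes with the pattern most like each of the 6 were taken from 7445 genes over 46 sums of at least 20 cells, by Pearson's r of log2(CPM + 5). The sums share libraries, and most of them are of ECs, so the values are a description. Apln was most like Myct1 (r = 0.81), Adm (0.81), Flt1 (0.79) and Vwf (0.77). Adm was most like Csrp1 (0.83), Apln (0.81), Lrrc8c (0.74), Klf6 (0.73) and Fn1 (0.73). Each ligand was thus the second in the other's list. Vwf, which encodes von Willebrand factor, averaged 519 CPM in Tip ECs against 219 CPM in Structural ECs.

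The receptor genes had other neighbours. Aplnr was most like Hspa12b (0.90), Flt4 (0.90), Pglyrp1 (0.89), Cdh5 (0.89) and Tspan18 (0.89), and Ramp2 was most like Adgrl4 (0.95), Cldn5 (0.93), Lrp8 (0.91), Ptprb (0.91) and Cdh5 (0.90). Cdh5, which encodes VE-cadherin, is in both lists, and it averaged 674 CPM in Tip, 678 CPM in Structural and 608 CPM in Proliferative ECs. Calcrl was most like Cd38 (0.81), Tgm2 (0.80), Tril (0.79) and Abcg2 (0.78). Ramp3 had no gene above an r of 0.68, that of Ndufaf5, and its sums rest on few UMIs. Between a ligand and its receptor, r was 0.62 for Apln and Aplnr and 0.66 for Adm and Calcrl.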

How the data were processed

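The authors aligned Drop-seq reads to GRCm38 and counted UMIs with kb-python, removed cells with fewer than 100 genes or more than 10% mitochondrial UMIs, assigned cell types with Seurat 3 and removed contaminant clusters. They deposited unnormalized UMI counts per gene and cell, and a metadata table with cell totals and the percent of mitochondrial UMIs, by which no cell was above 9.99%. The annotation counted on is not given in the sources used here. All cells are singlets in the deposited metadata, and no doublet caller was run. Groups come from the sample labels, and the label ECs was read as Structural ECs. Replicates follow the replicate entry and the barcode suffix of each cell. Another metadata entry names eNOS+/+ replicate 1 for the 613 cells taken here as eNOS+/+ replicate 2.

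UMIs were summed per cell type and replicate with Python 3.11.15 (numpy 2.4.6, scipy 1.17.1, pandas 2.3.3, matplotlib 3.10.9), giving 288 to 2266 ECs and 488367 to 2425603 EC UMIs per replicate. Genotypes were compared in R 4.3.3 with edgeR 4.0.16 (filterByExpr, TMM scaling, quasi-likelihood test, standard errors from the fold change and F) and DESeq2 1.42.0, with Benjamini-Hochberg adjustment. The edgeR test between genotypes was run on simulated sums, with planted changes larger than those of the 6 genes. It therefore does not show the power for smaller changes, and DESeq2 and the interaction fit were not run on these sums. Nothing says that replicates were more than separate pools of retinas. Intervals and limits cover counting error only. The genes and lists were chosen with earlier results of these data known: the 6 genes, the 5 genes most like each, the pathway list, the marker lists and Nos3. Alternatives were other scalings, no filter, each replicate left out, the replicate block, deeper cells, mitochondrial genes removed, other pseudocounts and other depths. Counting barcode families as 1 cell and weighting the subtypes equally were added after the data had been seen. Promoters of Aplnr and Ramp2 and proteins are not analysed here. Of the genes under these rules, 3 are not reported here.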

Additional observations from a re-analysis of the deposited data

Results flagged for a closer look

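Of the 18 levels of the 6 genes in the 3 EC subtypes, 4 had a replicate whose gap to the nearest other replicate was a larger part of the range of the 6 than Dixon's 95% critical value, which chance passes in about 5% of groups. Apln in Tip ECs was lowest in eNOS-/- replicate 2, at 736.5 CPM, with the nearest replicate at 966.9 CPM. The other 3 were all high values of eNOS-/- replicate 3, the replicate with the fewest ECs (288) and with mural markers in its Structural ECs. Adm there was at 115.9 CPM in Structural ECs, where the nearest replicate had 42.8 CPM, and at 127.9 CPM in Proliferative ECs, where the nearest had 63.1 CPM. Ramp3 in its Proliferative ECs was at 51.2 CPM, from 4 UMIs, where the nearest replicate had 9.66 CPM. Its Proliferative ECs carried the mural markers at 307 CPM against 4.83 to 31.5 CPM in the other replicates, the tip markers at 1113 CPM against 556 to 911 CPM and the proliferative markers at 1816 CPM against 2536 to 3469 CPM. Its Tip ECs carried the mural markers at 238 CPM against 13.8 to 48.1 CPM. The part of these markers in these values was not tested.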

How the results depend on the processing

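In the genotype tests 0 of the 6 genes were called in Tip, Structural, Proliferative or all ECs, or in the interaction, under every setting run. None of the level differences between EC subtypes moved by more than its SD over replicates. Neither did the co-detection differences of Apln and Aplnr or of Adm and Calcrl, but that of Apln and Aplnr turned from -1.16 to 1.48 points at 1000 UMIs. Leaving out a single replicate cannot move such a mean by its SD, so for those runs this outcome was fixed in advance. The Ramp2 share differed between genotypes by 0.27 percentage points, and by -0.16 points when the 3 subtypes had the same weight. In Tip, Structural, Proliferative and all ECs the calls over the whole table were 1, 2, 1 and 2 genes, against 8, 74, 10 and 84 with no filter on low counts and 25, 28, 73 and 78 without eNOS-/- replicate 3. The cause of that rise was not tested. Leaving out any other replicate gave 0 to 5 calls, DESeq2 1 to 3 and deeper cells 0 to 2.

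Fold changes near 0 changed sign. Adm in Proliferative ECs (-0.07) was 0.090 with DESeq2. Ramp3 in all ECs (-0.16) was 0.28 when the subtypes had the same weight. With each replicate left out in turn, Apln ran from -0.20 to 0.045 in Tip ECs, from -0.041 to 0.20 in Proliferative ECs and from -0.12 to 0.13 in all ECs. Adm ran from -0.040 to 0.98 in Structural ECs and from -0.37 to 0.37 in Proliferative ECs. Calcrl ran from -0.43 to 0.086 in Structural ECs, from -0.52 to 0.024 in Proliferative ECs and from -0.25 to 0.27 in all ECs. Aplnr ran from -0.12 to 0.16 in Proliferative ECs. Ramp2 ran from -0.11 to 0.27 in Structural ECs, from -0.048 to 0.19 in Proliferative ECs and from -0.052 to 0.27 in all ECs, and Ramp3 from -0.45 to 0.01 in all ECs.

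Replicates share only a number between genotypes. Same-numbered replicates had correlations of 0.13, -0.07 and 0.11 in all ECs after removal of the group means, and not every sample correlated best with its own number. With the replicate number as a block 0 of the 6 genes were called, Adm in Proliferative ECs was 0.12 and Calcrl in all ECs -0.0075, and 11 genes of the whole table were called in Structural ECs and 3 in Proliferative ECs. Rgs5, of the pathway list, then passed in Structural ECs (3.50, adjusted p = 0.010 from edgeR), as Rgs5 and Rgs4 did with no filter, and Klf2 in Proliferative ECs (-1.12, adjusted p = 0.043 from edgeR) with no filter. Without eNOS-/- replicate 3 Klf2 also passed in all ECs (-1.55, adjusted p = 0.026 from edgeR), among 78 genes of the whole table. Calcrl, with 749 UMIs in all cells, and Ramp3, with 116, are the genes that depth limits most.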
